A study of Arabidopsis thaliana with 39 samples.

Results

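The 10 genes described here are the transcriptional regulators that run the seed maturation program of Arabidopsis and those that shut it down: ABI3 (AT3G24650), FUS3 (AT3G26790), LEC2 (AT1G28300), LEC1 (AT1G21970), L1L (AT5G47670, named NF-YB6 in RefSeq), ABI4 (AT2G40220), VAL1 (AT2G30470), VAL2 (AT4G32010), VAL3 (AT4G21550) and AGL67 (AT1G77950). They were chosen by name and taken from the count tables by gene identifier, and they are 10 of 27432 nuclear protein-coding genes. Transcripts were sequenced from their polyadenylated 3′ ends in after-ripened seeds, that is, mature dry seeds stored until primary dormancy was lost. In the time course, single seeds of the accession Col-0 were sampled after 1 h of imbibition (1h), after 1, 3, 5 and 7 days in water in the dark at high temperature, which induces secondary dormancy (1d, 3d, 5d, 7d), and once 24 h of recovery in conditions that permit germination had been added to the 7 days (7d+24h). Each time point had 3 libraries of 32 seeds, and 3 more libraries held a pool-split control, in which extracts of 7d seeds were mixed and divided again. In the dog1 experiment, single seeds of dog1-4, a mutant of the dormancy gene DELAY OF GERMINATION 1 (DOG1), were compared with Col-0 at 3d and at 7d+24h, with 3 libraries for each genotype at each time. Finally, 3 pools of dry dog1-4 seeds were compared with 3 pools of dry Col-0 seeds. Libraries of the time course are batches drawn from a single seed pool, so their p-values measure the spread between batches of seeds. The seed pools of the dog1 experiment are not named in the labels, and if libraries of a genotype share a pool, genotype and pool cannot be told apart. Only 1 mutant allele was studied.

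Seed maturation is directed by the LAFL regulators, named after LEC1, ABI3, FUS3 and LEC2. ABI3, FUS3 and LEC2 carry a B3 domain that binds the RY element of storage protein promoters, whereas LEC1 and its relative L1L are NF-YB subunits of the trimeric NF-Y factor. ABI3 is the member of this group that acts latest, and it carries abscisic acid (ABA) signals to genes of desiccation tolerance and dormancy. ABI4 is an AP2-type factor of ABA and sugar signalling. VAL1, VAL2 and VAL3 are B3 proteins as well, but they bind the same element to recruit Polycomb and histone deacetylase complexes, and they silence the maturation program when the seed becomes a seedling. AGL67 is a MADS-box factor expressed in seeds.

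The members lie on all chromosomes of the nuclear genome, in the TAIR10.1 build with RefSeq gene models. ABI3 spans positions 8997370 to 9001185 of chromosome 3 and has 6 exons, FUS3 spans 9853828 to 9856212 of the same chromosome, ABI4 is an intronless gene at 16796247 to 16797585 of chromosome 2, VAL1 lies at 12980428 to 12985277 of chromosome 2, and AGL67 at 29306824 to 29311194 of chromosome 1. UMIs were counted on the sense strand, and 9 members overlap no other gene on their strand. L1L overlaps 1, so its counts are uncertain. The promoters of ABI3, FUS3, AGL67 and VAL1 are shown because FUS3, AGL67 and VAL1 hold elements that maturation regulators read and ABI3 holds none in this window. The sequences are the 250 bases upstream of the annotated start, read 5′ to 3′ along the gene from the RefSeq assembly, with matches to the RY element CATGCA or the ABRE core ACGTG (either strand) in capitals.
ABI3 (chr3:8997120-8997369, plus strand): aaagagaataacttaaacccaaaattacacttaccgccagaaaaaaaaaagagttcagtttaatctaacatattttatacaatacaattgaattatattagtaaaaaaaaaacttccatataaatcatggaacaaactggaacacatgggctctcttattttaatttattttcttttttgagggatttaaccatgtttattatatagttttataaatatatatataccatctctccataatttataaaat
FUS3 (chr3:9856213-9856462, minus strand): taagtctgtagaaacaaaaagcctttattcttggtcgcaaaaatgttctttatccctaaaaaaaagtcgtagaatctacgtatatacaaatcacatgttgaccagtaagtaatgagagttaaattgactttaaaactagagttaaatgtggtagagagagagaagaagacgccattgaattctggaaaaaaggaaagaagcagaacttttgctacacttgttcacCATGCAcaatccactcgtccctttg
AGL67 (chr1:29306574-29306823, plus strand): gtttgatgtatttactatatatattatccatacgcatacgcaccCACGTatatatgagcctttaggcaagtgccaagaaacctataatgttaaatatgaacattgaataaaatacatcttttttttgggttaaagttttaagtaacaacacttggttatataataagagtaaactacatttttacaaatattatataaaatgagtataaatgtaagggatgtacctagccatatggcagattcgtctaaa
VAL1 (chr2:12985278-12985527, minus strand): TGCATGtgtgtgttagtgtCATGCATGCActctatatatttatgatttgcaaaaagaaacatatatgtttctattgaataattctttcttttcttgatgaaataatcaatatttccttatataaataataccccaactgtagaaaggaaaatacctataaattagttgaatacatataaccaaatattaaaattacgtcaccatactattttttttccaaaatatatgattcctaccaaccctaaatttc
Counted over 300 bases, from 250 before to 50 from the start, the RY element was found in 3 of the 10 members (FUS3, LEC1 and VAL1), against 9.72% of 27443 protein-coding promoters. VAL1 held 4 matches, all toward the far end of its window. Of these, 3 overlap in 1 run from −231 to −222, and the other lies at −250 to −245. The ABRE core was found in AGL67 alone among the members, against 26.7% of promoters, and the G-box CACGTG in 0 members, against 7.68%. These matches describe letters in a window and not sites of binding.

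After seeds with under 5000 genic UMIs were removed (genic UMIs are unique molecular identifiers on nuclear protein-coding genes), 665 of 672 seeds of the time course and 382 of 384 seeds of the dog1 experiment were kept. Summed per library, they held 731262 to 3131285 genic UMIs in the time course and 1736693 to 4989465 in the dog1 experiment, while 836195 to 3377944 counts were found in dry pools. The share of UMIs outside these genes, called unspecific, differed widely between time points. It was 41.9% to 62.7% at 1h, 17.8% to 24.4% at 1d, 62.0% to 73.1% at 3d, 65.5% to 75.5% at 5d, 25.7% to 31.5% at 7d, 20.8% to 24.4% at 7d+24h and 50.5% to 57.6% in the pool-split control, but 10.6% to 13.9% in the dog1 experiment, and dry pools had 3.27% to 5.28%. DOG1 was lower in every dog1-4 library than in any Col-0 library of its comparison, by log2 fold changes of −3.44 at 3d, −3.33 at 7d+24h and −3.70 in dry seeds. The library dog1-4 3d replicate 3 stood apart, because leaf and seedling markers (RBCS1A, CAB1, CAB2 and CA1) summed to 5797 CPM (counts scaled to a common library size) there, against 36.0 to 62.1 CPM in the 5 other 3d libraries of its experiment. Storage markers of the embryo (CRA1, CRC, OLEO1 and EM1) were at 9634 to 238040 CPM in all libraries.

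All levels below are CPM scaled by trimmed mean of M values (TMM), and since each transcript is counted at its 3′ end they need no correction for length. As whole seeds were measured, fewer cells of a type and less RNA per cell cannot be told apart. A gene was called at an adjusted p under 0.05 in edgeR (quasi-likelihood F-test), adjusted by Benjamini-Hochberg over all genes tested. The direction of small changes depended on the scaling between time points. When the scaling was taken only from the 8070 genes within the study's limits (a mean of 1 UMI or more in a seed and a correlation of at most 0.3 with unspecific UMIs), the median log2 fold change of all tested genes shifted by −0.72 for 1d against 1h, by 0.77 for 3d against 1d, by 0.16 for 5d against 3d, by −0.89 for 7d against 5d, by −0.68 for 7d against 1h and by 0.40 for the pool-split control against 7d, but only by −0.0070 for 7d+24h against 7d. With that scaling the share of called genes that were higher was 20.7% in place of 50.2% for 1d against 1h, 84.0% in place of 52.7% for 3d against 1d, 11.9% in place of 47.0% for 7d against 5d, 19.0% in place of 48.99% for 7d against 1h and 93.0% in place of 64.4% for the pool-split control. Member changes are therefore given under both scalings wherever they differ in call. The study's limits were recomputed here against all UMIs outside nuclear protein-coding genes, whereas the paper names intergenic signal. The number of genes they leave differs from the paper's in both the time course and the dog1 experiment.

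Of the 10 members, 9 were tested in the time course among 20205 genes, and L1L was too low. All 9 differed over the 6 time points by the F-test of edgeR, as did 89.1% of all tested genes. At 1d against 1h, 3 members were called higher (29.9% of all tested genes were) and 1 was called lower (29.6% of all). At 3d against 1d, 4 were called higher (34.4%) and 3 lower (30.8%). At 5d against 3d no member was called, and of all genes 0.00495% were called higher and 0.0346% lower. In that comparison 2 members, AGL67 and FUS3, had an unadjusted p under 0.05 in edgeR, and DESeq2 called 1 member, AGL67. At 7d against 5d, 2 members were called higher (32.5%) and 4 lower (36.8%). At 7d+24h against 7d, 1 was called higher (15.7%) and 2 lower (10.7%). Over the whole induction, 7d against 1h, 3 were called higher (25.7%) and 1 lower (26.7%). In most of these comparisons the share of members called was of the same order as the share of all genes, so the counts alone do not set the members apart.

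ABI3 was the most abundant LAFL member at every time point, and it was on average lowest at 1h and highest at 1d. Its levels were 99.4, 91.3 and 144 CPM at 1h, 332, 388 and 427 CPM at 1d, 150.4, 231.5 and 244.8 CPM at 3d, 134, 158 and 215 CPM at 5d, 223, 267 and 251 CPM at 7d and 254, 287 and 327 CPM at 7d+24h. The 1d libraries were all above those of every other time point, and the 3d and 5d libraries overlapped, as did those of 7d and 7d+24h. ABI3 rose at 1d against 1h by a log2 fold change of 1.79 ± 0.22 (SE, adjusted p = 3.9e-08, edgeR), and by 1.09 under the study-limit scaling. It stayed higher at 7d than at 1h (1.16 ± 0.22, adjusted p = 6.1e-05; 0.50, adjusted p = 0.012 under the study-limit scaling). The 3d level was called lower than the 1d level (−0.87 ± 0.20, adjusted p = 0.00054), but not under the study-limit scaling (−0.09, adjusted p = 0.63). The change at 7d against 5d turned with the scaling, being 0.54 ± 0.21 (adjusted p = 0.022) with all genes and −0.36 (adjusted p = 0.048) with the study-limit scaling, and it was not called without 5d replicate 1 (0.40), 5d replicate 2 (0.49), 7d replicate 2 (0.47) or 7d replicate 3 (0.44).

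**Figure D1:**
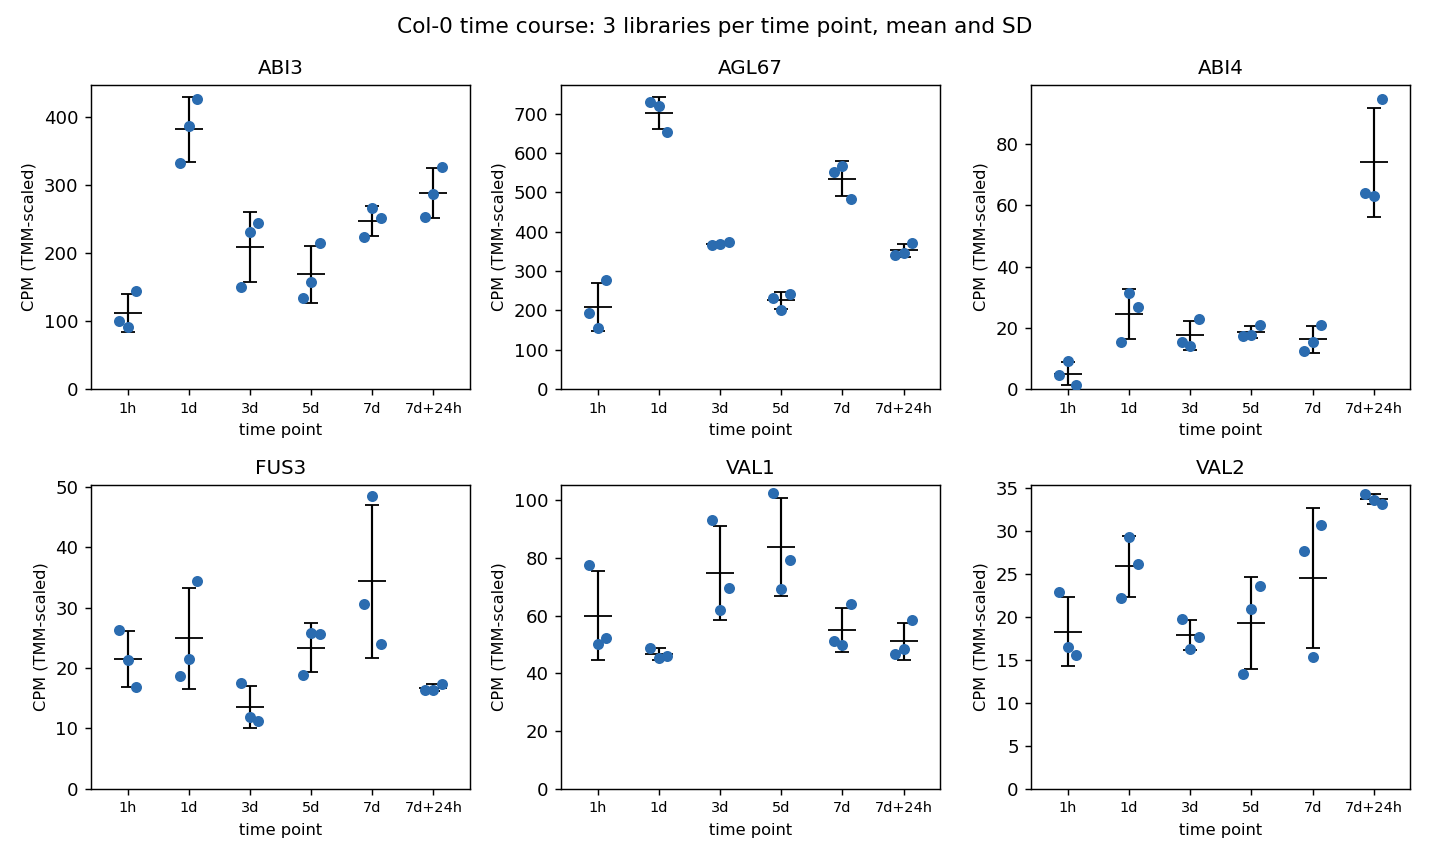
Level of 6 members in each time-course library, in CPM on linear axes that start at 0, against time point (1h to 7d+24h); points are libraries, bars are the mean and SD of 3 libraries. ABI3 and AGL67 are lowest at 1h and highest at 1d, ABI4 is highest at 7d+24h (63.2 to 94.7 CPM), and the 7d+24h libraries of FUS3 are all below those of 7d.

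AGL67 had the highest level of all members at every time point of the time course and followed ABI3 at its beginning. It had 193, 155 and 276 CPM at 1h, 731, 719.8 and 654 CPM at 1d, 366, 369.5 and 373 CPM at 3d, 232, 201.7 and 242 CPM at 5d, 552, 567 and 483 CPM at 7d and 340.0, 345 and 372 CPM at 7d+24h. Apart from 1h, which overlapped with 5d, and 7d+24h, which overlapped with 3d, the libraries of each time point were separate from those of the others. AGL67 rose at 1d against 1h (1.76 ± 0.19, adjusted p = 5.7e-09; 1.08 under the study-limit scaling) and at 7d against 5d (1.24 ± 0.19, adjusted p = 1.9e-06; 0.34, adjusted p = 0.013). It was higher at 7d than at 1h as well (1.37 ± 0.19, adjusted p = 8.1e-07). The 3d level was called lower than the 1d level (−0.93 ± 0.19, adjusted p = 8.5e-05), but not under the study-limit scaling (−0.14, adjusted p = 0.29). The 5d libraries were all below the 3d libraries (−0.71 ± 0.19), with an unadjusted p of 0.00063 and an adjusted p of 0.24.

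During recovery ABI3 and AGL67 parted. ABI3 at 7d+24h differed from 7d by 0.23 ± 0.20 (adjusted p = 0.43), whereas AGL67 fell by 0.60 ± 0.18 on the log2 scale (adjusted p = 0.015) in all 3 libraries. The call for AGL67 was not made without 7d+24h replicate 1 (−0.57, adjusted p = 0.053) or 7d+24h replicate 2 (−0.58, adjusted p = 0.052). Whether the changes of the 2 genes differ from each other was not tested.

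ABI4 was low through induction and the only member called higher in recovery. It had 4.57, 9.05 and 1.41 CPM at 1h, 15.3, 31.3 and 26.7 CPM at 1d, 15.4, 14.1 and 23.0 CPM at 3d, 17.2, 17.7 and 21.004 CPM at 5d, 12.3, 15.3 and 20.95 CPM at 7d and 64.2, 63.2 and 94.7 CPM at 7d+24h. All 3 libraries of 7d+24h lay above all other libraries, all 3 of 1h lay below, and the libraries from 1d to 7d overlapped. ABI4 rose at 7d+24h against 7d by 2.12 ± 0.27 (adjusted p = 4.5e-07) and by 2.11 under the study-limit scaling. It also rose at 1d against 1h (2.10 ± 0.41, adjusted p = 7.4e-05; 1.35, adjusted p = 0.010). The level at 7d was called higher than at 1h (1.58 ± 0.44, adjusted p = 0.0037), but not under the study-limit scaling (0.87, adjusted p = 0.11) and not without 7d replicate 3 (1.02, adjusted p = 0.098). At 7d against 5d it did not pass (−0.14, adjusted p = 0.70), whereas the study-limit scaling called it lower (−1.04, adjusted p = 0.0100).

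FUS3 was far below ABI3. It had 26.3, 21.4 and 16.9 CPM at 1h, 18.8, 21.6 and 34.5 CPM at 1d, 17.6, 11.96 and 11.2 CPM at 3d, 18.8, 25.8 and 25.6 CPM at 5d, 30.7, 48.5 and 23.9 CPM at 7d and 16.4, 16.4 and 17.4 CPM at 7d+24h. Its mean was highest at 7d, and the 7d+24h libraries were all below the 7d libraries. FUS3 fell in recovery by 0.94 ± 0.27 on the log2 scale (adjusted p = 0.0093), and by 0.95 under the study-limit scaling, but the call was not made without 7d replicate 2 (−0.76, adjusted p = 0.051). The lower level at 3d against 1d (−0.91 ± 0.32, adjusted p = 0.012) was not called under the study-limit scaling (−0.14, adjusted p = 0.76), nor without 1d replicate 3 (−0.57) or 3d replicate 3 (−0.75).

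**Figure D2:**
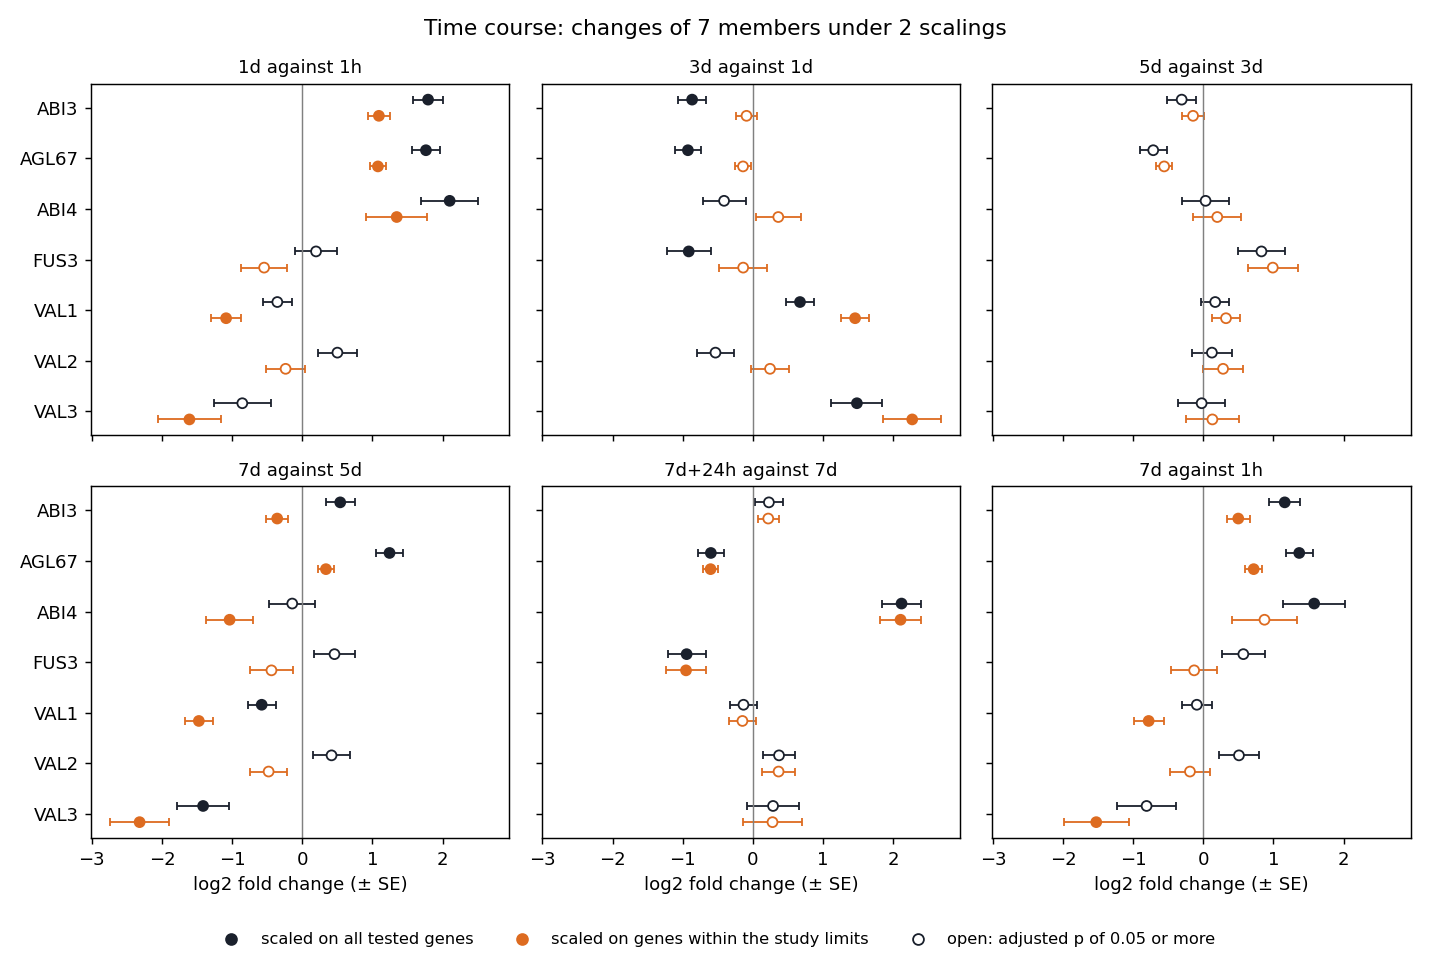
Log2 fold change (points, with SE) of the members in 6 comparisons of the time course under TMM over all tested genes and under the scaling from the genes within the study's limits; filled points are called at an adjusted p under 0.05. The recovery comparison, 7d+24h against 7d, hardly moves between the scalings (ABI4 2.12 and 2.11), while ABI3 at 7d against 5d changes sign (0.54 and −0.36).

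LEC1, LEC2 and L1L were close to the limit of detection. LEC1 had 1, 7 and 4 UMIs per library at 1h, 3, 0 and 0 at 1d, 9, 4 and 3 at 3d, 8, 10 and 14 at 5d, 0, 0 and 0 at 7d and 3, 1 and 4 at 7d+24h, and the pool-split libraries had 8, 5 and 3. LEC2 had 4, 4 and 0 UMIs at 1h, 4, 1 and 4 at 1d, 5, 6 and 8 at 3d, 8, 10 and 9 at 5d, 3, 1 and 4 at 7d and 7, 2 and 1 at 7d+24h, and 10 in each pool-split library. L1L never exceeded 4 UMIs in a library. Among the 6 time points the counts of LEC1 and LEC2 thus summed highest at 5d, and LEC1 was not seen in any of 93 seeds at 7d, which allows a share of up to 3.23% of seeds with a UMI.

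Against a floor of 3 counts over the 3 libraries of 7d, LEC1 was at least 12.6-fold lower at 7d than at 5d (adjusted p = 3.8e-05, edgeR) and at least 6.80-fold lower at 7d than at 1h (adjusted p = 0.0015). LEC1 was also called lower at 1d than at 1h (adjusted p = 0.010), though not without 1h replicate 2 (adjusted p = 0.066), and higher at 3d than at 1d (adjusted p = 0.0045), though not without 3d replicate 1 (adjusted p = 0.067), and no fold is given because its 3 counts at 1d are at the floor. LEC2 was called higher at 3d than at 1d (1.73 ± 0.64, adjusted p = 0.019), though not without 1d replicate 2 (1.37) or 3d replicate 2 (1.59), and it fell at 7d against 5d by 1.94 ± 0.63 on the log2 scale (adjusted p = 0.0078). These steps went along with the unspecific share of UMIs, which was high at 1h, 3d and 5d and low at 1d, 7d and 7d+24h. The pool-split control differs from 7d in that share too. Made from extracts of 7d seeds, its libraries had 50.5% to 57.6% unspecific UMIs, against 25.7% to 31.5% in the 7d libraries. LEC1 was at least 5.27-fold higher there than at 7d (adjusted p = 0.0058), and LEC2 was called higher (1.85 ± 0.63, adjusted p = 0.026). In that comparison 2 members were called higher, as were 20.1% of all tested genes, and 0 lower, as were 11.1%. The call for LEC2 was not made without 7d replicate 1 (2.05), 7d replicate 2 (1.75), 7d replicate 3 (1.73), pool-split replicate 2 (1.85) or pool-split replicate 3 (1.72). Under the study-limit scaling 3 more members were called higher in the pool-split control, VAL1 (0.56, against 0.16 with all genes), VAL3 (1.32, against 0.92) and AGL67 (0.37, against −0.04). VAL3 was also called without 7d replicate 3 (1.34). The part of unspecific reads in the LEC1 and LEC2 counts was not tested.

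**Figure D3:**
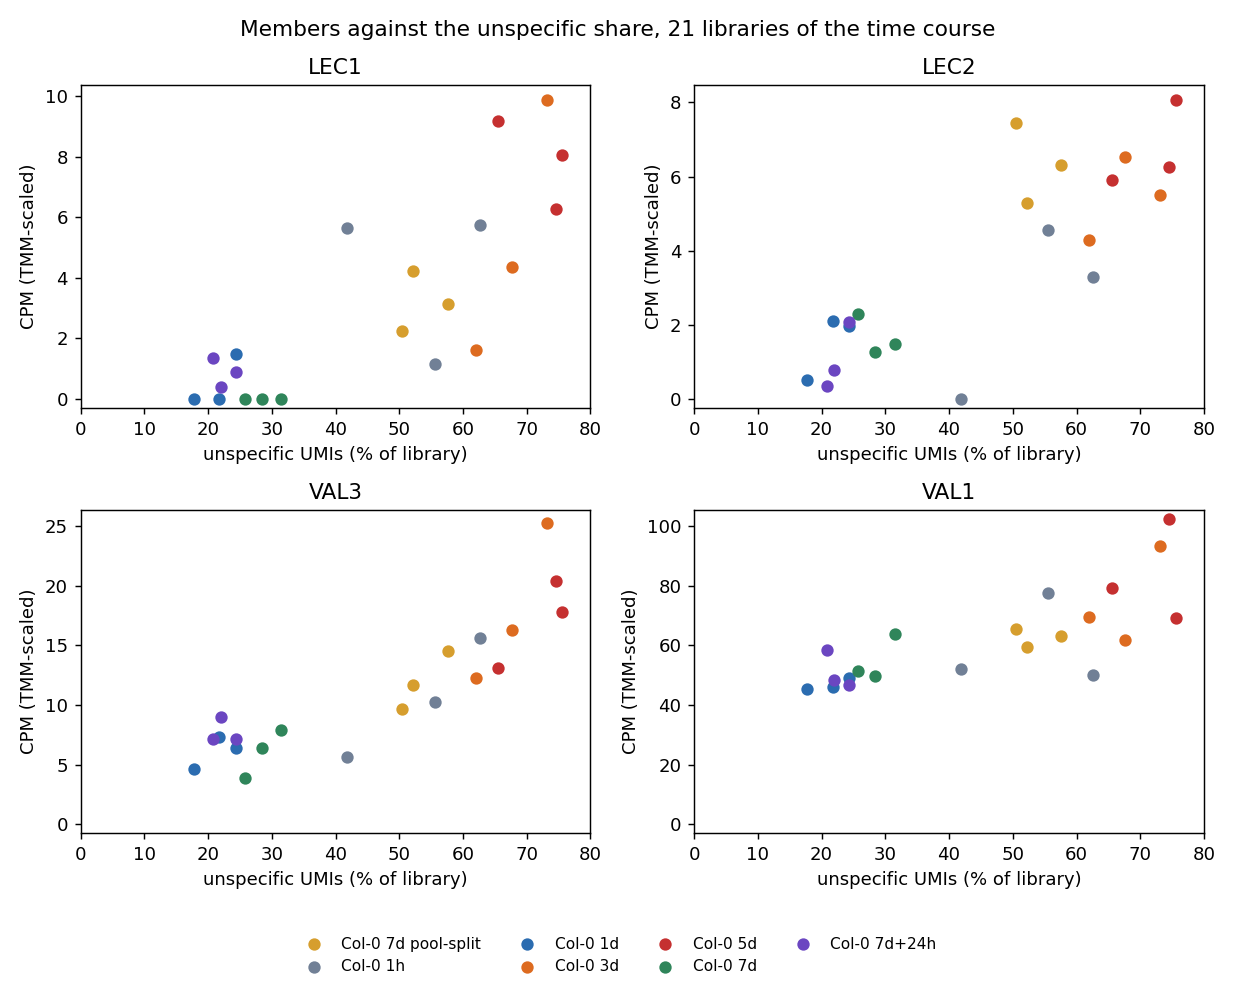
Level of LEC1, LEC2, VAL3 and VAL1 (CPM, axes from 0) against the unspecific share of UMIs (percent) in the 18 time-course libraries and the 3 libraries of the pool-split control, with a colour per group. The highest value of each gene is in a library of 3d or 5d, where the unspecific share is high, and LEC1 is at 0 in the 3 libraries of 7d.

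The VAL genes, which encode the repressors of the program, divided along the same line. VAL3 had 10.3, 15.6 and 5.64 CPM at 1h, 6.42, 4.62 and 7.32 CPM at 1d, 25.3, 16.3 and 12.3 CPM at 3d, 20.4, 17.7 and 13.1 CPM at 5d, 3.83, 6.38 and 7.86 CPM at 7d and 7.16, 8.97 and 7.18 CPM at 7d+24h. It was called higher at 3d than at 1d (1.48 ± 0.36, adjusted p = 0.00079) and lower at 7d than at 5d (−1.41 ± 0.37, adjusted p = 0.0015). In the single seeds of the time course its counts correlated with the unspecific UMIs (r = 0.317 over all seeds), above the study's limit of 0.3. VAL1, the most abundant of the VAL genes, behaved alike in smaller steps. It had 77.7, 50.2 and 52.2 CPM at 1h, 48.9, 45.2 and 45.985 CPM at 1d, 93.3, 62.0 and 69.5 CPM at 3d, 102.6, 69.4 and 79.4 CPM at 5d, 51.4, 49.8 and 64.0 CPM at 7d and 46.6, 48.4 and 58.4 CPM at 7d+24h. VAL1 was called higher at 3d than at 1d (0.67 ± 0.20, adjusted p = 0.0045) and lower at 7d than at 5d (−0.58 ± 0.20, adjusted p = 0.011), the second of these not without 5d replicate 1 (−0.41). Its r with unspecific UMIs was 0.303. The 1d level against 1h was called for neither gene (VAL1 −0.36, VAL3 −0.85), but both were called lower in 5 of 7 alternative settings. These were the study-limit scaling (VAL1 −1.09, adjusted p = 0.00013; VAL3 −1.61, adjusted p = 0.0036), RLE (−0.69 and −1.20), DESeq2 (−0.69 and −1.20), a minimum of 10000 UMIs per seed (−0.59 and −1.10) and a fit on these groups alone (−0.78 and −1.29). Both were also called without 1h replicate 3 (VAL1 −0.68, VAL3 −1.35), 1d replicate 1 (−0.67 and −1.17) or 1d replicate 3 (−0.56 and −1.21), VAL1 without 1h replicate 2 (−0.72) and VAL3 without 1h replicate 1 (−1.14). At 7d against 1h neither was called (VAL1 −0.09, VAL3 −0.81), but under the study-limit scaling both were lower (−0.78 and −1.53), and VAL3 was called lower in 4 of 6 settings, with RLE (−1.10), DESeq2 (−1.11) and the minimum of 10000 UMIs (−0.996) as well, and also without 1h replicate 3 (−1.25) or 7d replicate 3 (−1.42). The part of unspecific reads in these changes was not tested.

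VAL2 had its highest level in recovery, with means of 18.3 CPM at 1h, 25.9 at 1d, 17.9 at 3d, 19.3 at 5d, 24.5 at 7d and 33.7 at 7d+24h. The libraries of 7d+24h, with 34.3, 33.6 and 33.2 CPM, were all above those of 7d, with 27.6, 15.3 and 30.7 CPM. None of its steps was called, the one of recovery being 0.37 ± 0.23 (adjusted p = 0.25), and its sign at 3d against 1d turned with the scaling (−0.53, and 0.25 under the study-limit scaling), as did its signs at 1d against 1h, 7d against 5d and 7d against 1h.

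To compare time points that are alike in their unspecific share, a fit was made on 1d, 7d and 7d+24h alone, each with under 40% unspecific UMIs in every library. This fit was chosen after the data were seen. Of its 15259 genes, 14.5% were called higher and 17.5% lower at 7d against 1d, and both scalings gave the same member calls. ABI3 was lower at 7d than at 1d (−0.57 ± 0.13, adjusted p = 0.0028, edgeR), as was AGL67 (−0.33 ± 0.11, adjusted p = 0.030), whereas VAL1 (0.34), VAL2 (0.09), FUS3 (0.43) and ABI4 (−0.44) did not pass. At 7d+24h against 7d (20.5% of genes higher, 20.2% lower) ABI4 was higher (1.97 ± 0.25, adjusted p = 1.0e-05), and FUS3 (−1.06 ± 0.26, adjusted p = 0.0043) and AGL67 (−0.73 ± 0.11, adjusted p = 7.7e-05) were lower. At 7d+24h against 1d (12.5% higher, 14.6% lower) ABI4 was higher (1.54 ± 0.22, adjusted p = 7.6e-05), and ABI3 (−0.47 ± 0.13, adjusted p = 0.011) and AGL67 (−1.06 ± 0.11, adjusted p = 2.7e-06) were lower. In the fit on all groups, AGL67 at 7d against 1d (−0.40, adjusted p = 0.14) and ABI3 at 7d+24h against 1d (−0.40, adjusted p = 0.19) were not called. LEC1, LEC2 and L1L had too few counts to be tested in the smaller fit.

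The genes these regulators act on or with were taken as lists, chosen with earlier results of these data known. Among 21 targets of the maturation program (storage proteins, oleosins, LEA proteins and dormancy genes), 5 were called higher and 10 lower at 1d against 1h (29.9% and 29.6% of all genes), with a median log2 fold change of −0.31 (0.02 over all genes). Under the study-limit scaling 4 were higher and 15 lower (12.1% and 46.3% of all genes). The 2S albumin SESA4 (−3.29) and the heat shock factor HSFA9 (−3.91) were lowest, and the cruciferins CRC (2.79) and CRA1 (3.22) highest. In recovery, 15 of the 21 targets fell (10.7% of all genes) and 1, DOG1 (1.06), rose (15.7%), with a median of −1.54 (−0.0037 over all genes), SESA2 (−3.44) and SESA4 (−2.62) falling most. At 7d against 5d, 12 were called higher and 2 lower (32.5% and 36.8% of all genes; median 0.87, −0.03 over all genes), but under the study-limit scaling 6 were higher and 6 lower (7.11% and 52.5%; median −0.02).

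Among 10 partners and co-regulators, 5 were called higher and 2 lower at 1d against 1h (29.9% and 29.6% of all genes), or 3 and 3 under the study-limit scaling (12.1% and 46.3%), where the list's median was −0.15 in place of 0.57. The bZIP factors bZIP53 (1.76) and EEL (1.61) were the highest, and bZIP67 (−1.95) and ABI5 (−1.06), which is on the target list too, were lower. In recovery EEL (−1.55) and bZIP53 (−0.65) fell, as did 10.7% of all genes, and 0 partners were called higher, against 15.7%. Of 15 tested genes of Polycomb and histone deacetylase complexes, through which VAL proteins repress, 7 were called higher and 2 lower at 1d against 1h (29.9% and 29.6% of all genes), or 2 and 4 under the study-limit scaling, where the list's median was −0.17 in place of 0.55. Among them were the Polycomb gene FIE (1.88) and the deacetylase gene HDA19 (1.04) as the highest and CLF (−1.46) and RING1A (−1.02) as the lower ones. In recovery 3 were higher (15.7% of all genes), led by BMI1A (1.11) and MSI1 (0.84), and 2 lower (10.7%), LHP1 (−0.99) and RING1B (−0.71).

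Marker levels also moved between the time points. Seed markers summed to 28198 to 48280 CPM at 1h, 191700 to 197420 at 1d, 87727 to 102730 at 3d, 49239 to 109190 at 5d, 83222 to 108930 at 7d and 28695 to 33177 at 7d+24h, so that their sum was highest at 1d, as ABI3 and AGL67 were. Of these 4 genes, 3 were called higher and 0 lower at 1d against 1h, or 3 and 1 under the study-limit scaling. The 21 targets, which include these 4 genes, did not rise as a set, with 5 higher, 10 lower and a median of −0.31. Endosperm markers summed to 11016 to 15748 CPM at 1h and 3889 to 5592 at 1d, and to 204.7 to 2331 CPM from 3d on. The 3 endosperm markers did not all fall. At 1d against 1h 1 was called higher and 1 lower (29.9% and 29.6% of all genes), with a median log2 fold change of 0.56. At 7d against 1h it was again 1 and 1 (25.7% and 26.7%), with a median of 1.18. Under the study-limit scaling 0 were higher and 1 lower in each (12.1% and 46.3%, then 10.7% and 45.5%). Leaf and seedling markers summed to 29.3 to 484 CPM over the 6 time points. The part of these markers in the member changes was not tested.

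The genes whose levels followed ABI3 most closely over the 18 libraries of the time course were E12A11, which is MOTHER OF FT AND TFL1, an ABA-responsive regulator of seed germination (Pearson r = 0.975 of log2 CPM), GAUT4 (0.970), GRF8 (0.963), HB22 (0.960) and HTB9 (0.955). For AGL67 they were UBC22 (0.965), AT1G36060 (0.952), MAGO (0.951), RS2Z33 (0.951) and RS31a (0.947), and for ABI4 the starch-degrading enzyme gene DPE2 (0.957), AT2G22900 (0.946), AT1G60770 (0.933), HCD1 (0.930) and AT3G12180 (0.926). The nearest gene to FUS3 reached 0.748 (AT4G32920), that to VAL1 0.910 (AT5G22810) and that to VAL2 0.913 (AT5G46560). These values share libraries, depth and scaling and describe likeness only.

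The dog1 experiment asked how the loss of DOG1 alters expression during induction (3d) and recovery (7d+24h). At 3d few genes differed between the genotypes, whereas at 7d+24h many did. Of 14908 genes tested there, 7 were members, and LEC1, LEC2 and L1L, at 0 to 3 UMIs in every library, were too low. At 3d, 0 members were called higher in dog1-4 than in Col-0 (0.899% of all genes were) and 1 was called lower (0.543%). At 7d+24h, 1 was called higher (14.2%) and 2 lower (14.6%). The low counts of LEC1 and LEC2 go with an unspecific share of 10.6% to 13.9% in all libraries of this experiment.

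FUS3 had the largest fold difference between the genotypes among the 7 tested members. At 7d+24h it had 2.42, 2.38 and 1.75 CPM in dog1-4, against 13.0, 9.43 and 7.90 CPM in Col-0, and every dog1-4 library was below every Col-0 library. FUS3 was lower in dog1-4 by a log2 fold change of −2.21 ± 0.28 (adjusted p = 0.00048, edgeR), a call made under every alternative tried and in every fit without a library. Among these alternatives, the minimum of 10000 UMIs per seed removed no seed of this experiment and could not change the call. FUS3 differed less with the study's limits on genes (−1.20, adjusted p = 0.0054, edgeR). At 3d it had 15.7, 17.0 and 13.2 CPM in dog1-4, against 36.5, 24.0 and 33.6 CPM in Col-0, again with no overlap (−1.05 ± 0.24, adjusted p = 0.049). This call was not made without Col-0 3d replicate 1 (−0.93), Col-0 3d replicate 2 (−1.21), Col-0 3d replicate 3 (−0.99) or dog1-4 3d replicate 3 (−0.93, adjusted p = 0.17).

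ABI3 was higher in dog1-4 at 3d and lower at 7d+24h, though neither difference was called by itself in the fit on all groups. It had 534, 521 and 439.9 CPM in dog1-4 at 3d, against 317, 336 and 369 CPM in Col-0, and 216, 189 and 196 CPM in dog1-4 at 7d+24h, against 255, 247 and 249 CPM in Col-0. The genotypes did not overlap at either time. The differences were 0.55 ± 0.13 at 3d (adjusted p = 0.052) and −0.32 ± 0.12 at 7d+24h (adjusted p = 0.069). The 7d+24h difference was called by DESeq2 (adjusted p = 0.020) and in a fit on these groups alone (−0.36, adjusted p = 0.024), and in 0 of 6 fits without a library. The change of the genotype difference between the times, tested as the interaction of genotype and time, was −0.87 ± 0.18 (adjusted p = 0.023), and ABI3 was the 1 member called lower there (2.67% of all genes), with 0 called higher (1.19%). Without dog1-4 3d replicate 3, the library with leaf markers, the 3d difference was 0.63 (adjusted p = 0.027) and the interaction −0.999 (adjusted p = 0.0021). The interaction was called in 5 of 12 fits without a library, and it ranged there over −0.999 to −0.82. It was lost without Col-0 3d replicate 1 or 2, dog1-4 3d replicate 2, Col-0 7d+24h replicate 1 or 2 and dog1-4 7d+24h replicate 2 or 3. The 3d difference was also called without dog1-4 3d replicate 1 (0.49, adjusted p = 0.048). For FUS3 the interaction was −1.16 ± 0.37 (adjusted p = 0.096), and −1.33 (adjusted p = 0.041) without dog1-4 3d replicate 3.

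**Figure D4:**
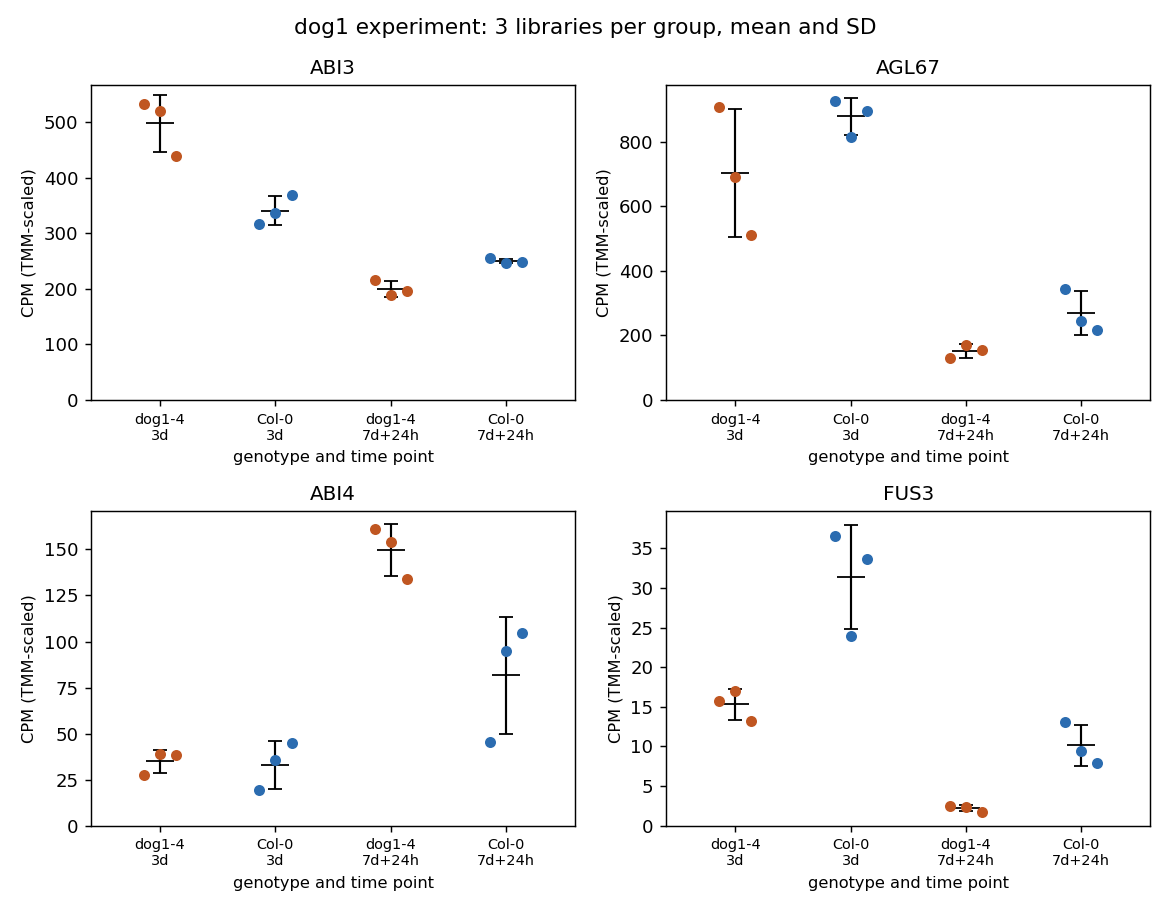
Level of ABI3, AGL67, ABI4 and FUS3 (CPM, axes from 0) in each library of the dog1 experiment, with dog1-4 left of Col-0 at 3d and at 7d+24h; points are libraries, bars are the mean and SD of 3 libraries. ABI3 lies above Col-0 in dog1-4 at 3d and below it at 7d+24h, and FUS3 lies below Col-0 at both times.

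AGL67 and ABI4 differed between the genotypes at 7d+24h in opposite directions. AGL67 had 129.5, 170.5 and 156 CPM in dog1-4, against 345, 244 and 216 CPM in Col-0, and ABI4 had 161, 154 and 134 CPM in dog1-4, against 45.5, 94.7 and 105 CPM in Col-0. Neither gene overlapped between the genotypes. AGL67 was lower by −0.82 ± 0.22 (adjusted p = 0.016) and ABI4 higher by 0.87 ± 0.29 (adjusted p = 0.038). Both calls depended on single libraries. AGL67 was not called without Col-0 7d+24h replicate 1 (−0.60), dog1-4 7d+24h replicate 1 (−0.72) or dog1-4 7d+24h replicate 3 (−0.84), and ABI4 was called in 1 of 6 such fits, being lost without Col-0 7d+24h replicate 1 (0.58), Col-0 7d+24h replicate 2 (0.99) and dog1-4 7d+24h replicates 1 (0.81), 2 (0.85) and 3 (0.94). With the study's limits on genes as recomputed here, the sign of AGL67 turned (0.21, adjusted p = 0.30, edgeR), and ABI4 was not among those genes. These limits left 679 genes in this experiment, far fewer than the paper kept, and the fit took its library sizes and TMM factors from those genes alone.

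At 3d, AGL67 had 908, 692 and 512 CPM in dog1-4, against 925, 815 and 897 CPM in Col-0. The lowest value is that of dog1-4 3d replicate 3, and the difference was −0.32 ± 0.22 (adjusted p = 0.44), or −0.13 without that library. ABI4 had 27.7, 39.0 and 38.3 CPM in dog1-4 at 3d, against 19.2, 35.4 and 45.0 CPM in Col-0 (0.08 ± 0.33). No VAL gene was called between the genotypes. At 7d+24h VAL1 had 33.6, 30.8 and 27.6 CPM in dog1-4, against 36.9, 37.7 and 37.2 CPM in Col-0, with no overlap and no call (−0.29 ± 0.13, adjusted p = 0.12). VAL2 differed by −0.0031 ± 0.13 and VAL3 by 0.21 ± 0.34.

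Between 3d and 7d+24h, the same 4 members were called in both genotypes. In dog1-4, 1 member was called higher (28.6% of all genes) and 3 lower (28.2%), and in Col-0 likewise 1 higher (22.3%) and 3 lower (21.2%). ABI4 rose by 2.08 ± 0.31 in dog1-4 (adjusted p = 0.00010) and by 1.30 ± 0.31 in Col-0 (adjusted p = 0.0054). ABI3 fell by 1.31 ± 0.13 in dog1-4 (adjusted p = 4.5e-06) and by 0.45 ± 0.13 in Col-0 (adjusted p = 0.012), FUS3 by 2.80 ± 0.29 and by 1.64 ± 0.23, and AGL67 by 2.21 ± 0.23 and by 1.71 ± 0.22, each on the log2 scale. With the study's limits on genes, FUS3 in dog1-4 was at −0.54 and AGL67 at 0.12 with no call, in Col-0 at −0.10 and −0.18 with no call, and ABI3 and ABI4 were not among the genes. Over all seeds of this experiment, the r with unspecific UMIs was 0.656 for ABI3 and 0.473 for ABI4, above the limit of 0.3. VAL1 (0.668) and VAL2 (0.608) were above it as well, while FUS3 (0.16), AGL67 (0.23) and VAL3 (0.22) were below. These r values use UMIs not scaled by the depth of a seed, and the unspecific share was 10.6% to 13.9% in all libraries here. They therefore do not separate unspecific signal from depth. Without dog1-4 3d replicate 3 the changes in dog1-4 were −1.46 for ABI3, −2.98 for FUS3, 2.09 for ABI4 and −2.45 for AGL67, all called. In the time course, where 7d+24h was not tested against 3d, Col-0 did not show the same falls. ABI3 was at 150.4 to 244.8 CPM at 3d there and at 254 to 327 CPM at 7d+24h. FUS3 was at 11.2 to 17.6, then 16.4 to 17.4 CPM, and AGL67 at 366 to 373, then 340.0 to 372 CPM. ABI4 was higher there too, with 14.1 to 23.0, then 63.2 to 94.7 CPM. The unspecific share also differed between these time points of the time course (62.0% to 73.1%, then 20.8% to 24.4%).

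Most targets of the program were lower in dog1-4 in recovery. At 7d+24h, 19 of 21 targets were called lower in dog1-4 than in Col-0 (14.6% of all genes) and 0 higher (14.2%; median −1.44, 0.04 over all genes), with SESA5 (−2.53) the lowest after DOG1 itself, while at 3d only DOG1 and SESA1 (−1.62) were lower (0.543% of all genes). From 3d to 7d+24h, 21 of 21 fell in dog1-4 (28.2% of all genes; median −2.72, 0.02 over all genes) and 20 of 21 in Col-0 (21.2%; median −1.91, 0.05 over all genes), the cruciferin gene CRB with log2 fold changes of −5.98 in dog1-4 and −4.69 in Col-0. In the interaction 6 targets were called, all lower (2.67% of all genes), with HSFA9 (−2.12) and SESA3 (−1.78) first. Of 9 tested partners at 7d+24h, EEL (−2.05) and NF-YC2 (−1.18) were the lowest of 3 that were lower, and AIP2 (0.90), whose product targets ABI3 for degradation, was higher. Of 15 tested repression genes, 3 were lower, led by LHP1 (−0.68) and SWN (−0.59), and MSI1 (0.64) was higher, counts near the shares of all genes (14.6% and 14.2%). The 4 seed markers are themselves among the 21 targets and so are not a separate set. All 4 were lower in dog1-4 at 7d+24h, with summed levels of 9634 to 11678 CPM in dog1-4, against 28728 to 43772 CPM in Col-0. Leaf and seedling markers summed to 205.3 to 335.0 CPM in dog1-4, against 102.1 to 115.7 CPM in Col-0, and endosperm markers (EPR1, MAN7 and EXPA2) to 684.0 to 981.7 CPM, against 225.4 to 460.0 CPM. Of the 4 leaf and seedling markers only 2 were tested, and 0 were called. Of the 3 endosperm markers 2 were called higher (14.2% of all genes) and 0 lower (14.6%). The part of these markers in the member differences was not tested.

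In dry seeds, 3 of the 10 members were tested among 9488 genes, 1 was called higher in dog1-4 (4.76% of all genes) and 0 lower (5.17%). ABI3 had 139, 121 and 114 CPM in dry dog1-4 pools, against 71.7, 103 and 84.0 CPM in dry Col-0 pools, without overlap (0.55 ± 0.17, adjusted p = 0.045). The call was made in 1 of 6 fits without a pool, being lost without Col-0 pool 1 (0.43), Col-0 pool 3 (0.54), dog1-4 pool 1 (0.47), dog1-4 pool 2 (0.57) or dog1-4 pool 3 (0.61). AGL67 was at 153, 145 and 138 CPM in dog1-4, against 113, 171 and 157 CPM in Col-0 (−0.01 ± 0.17), and VAL1 at 10.4, 6.67 and 7.91 CPM in dog1-4, against 8.22, 6.42 and 8.97 CPM in Col-0 (0.01 ± 0.36).

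The other 7 members were low in dry seeds. ABI4 had 10 counts in each of the 3 dog1-4 pools, against 3, 0 and 2 counts in the Col-0 pools. FUS3 had 7, 10 and 7 counts in dog1-4, against 4, 5 and 11 in Col-0, VAL2 had 10, 8 and 11, against 5, 4 and 4, and VAL3, LEC1 and L1L had at most 2. The dog1-4 pools were sequenced 1737478 to 3377944 counts deep and the Col-0 pools 836195 to 1477123. LEC2 was at 0 in all 6 pools. Of the 21 targets 6 were called higher in dry dog1-4 seeds (4.76% of all genes) and 7 lower (5.17%), with SESA4 (1.88) and SESA2 (1.06) the highest and, after DOG1 itself, SESA5 (−2.30) the lowest. Among 8 tested partners PIF1 (1.78), a repressor of germination in the dark, was higher and NF-YC2 (−2.69) and ABI5 (−0.77) lower. None of 13 tested repression genes was called.

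Counts of single seeds show in how many seeds each regulator was detected at a given depth, and a seed without a UMI may still hold the transcript. In dog1-4 at 7d+24h ABI4 was seen in 99.0% of 96 seeds, against 96.9% of 96 in Col-0. With each seed thinned to 5000 genic UMIs, the share was 53.1% ± 5.41 in dog1-4, against 28.1% ± 9.38 in Col-0 (SD, n = 3 libraries each), and the libraries did not overlap. The highest seed of dog1-4 held 112 ABI4 UMIs, against 60 in Col-0. For FUS3, 24.0% of dog1-4 seeds at 7d+24h had a UMI, against 63.5% of Col-0 seeds, with libraries at 18.8% to 28.1%, against 59.4% to 68.8%. At 3d, 51.6% of 95 dog1-4 seeds had a UMI, against 74.7% of 95 Col-0 seeds. Median depths were 89734 genic UMIs per seed in dog1-4, against 94648 in Col-0, at 7d+24h, and 59172, against 64503, at 3d. FUS3 was thus found in fewer dog1-4 seeds at a slightly lower depth, and its thinned shares at 7d+24h, 1.04% in dog1-4, against 6.25% in Col-0, rest on too few UMIs to be compared. Thinned shares of AGL67 at 7d+24h were 52.1% ± 3.61 in dog1-4, against 68.8% in each Col-0 library, and those of ABI3 64.6% ± 6.51, against 76.0% ± 7.86. Without thinning, AGL67 was seen in 99.0% of dog1-4 seeds, against 97.9% of Col-0 seeds, and ABI3 in 99.0%, against 100.0%.

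**Figure D5:**
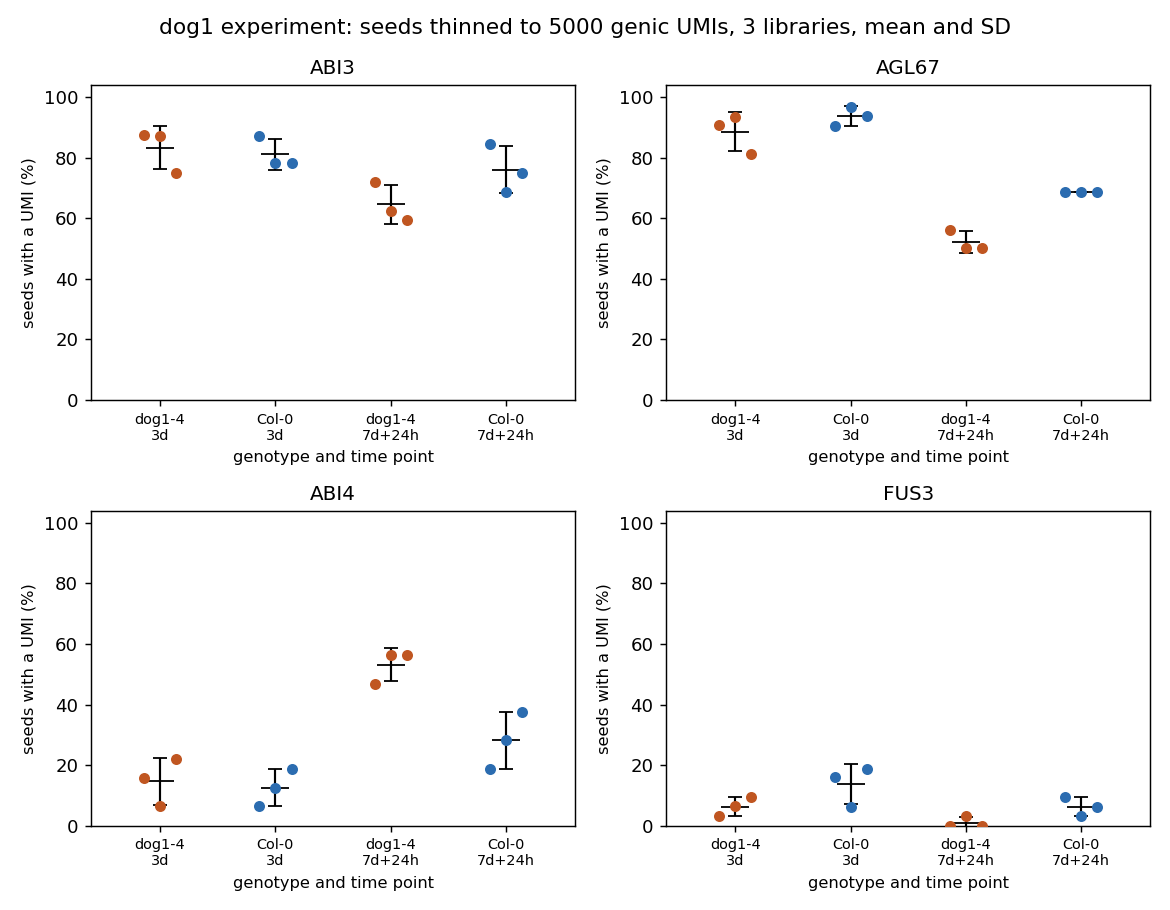
Share of seeds (percent) with at least 1 UMI of ABI3, AGL67, ABI4 and FUS3 per library of the dog1 experiment, after each seed was thinned to 5000 genic UMIs, with dog1-4 left of Col-0 at 3d and at 7d+24h. At 7d+24h the share for ABI4 is higher in dog1-4 (53.1% on average) than in Col-0 (28.1%).

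In the time course the thinned share of seeds with ABI3 was 38.7% ± 8.41 at 1h, 70.8% ± 3.61 at 1d, 67.7% ± 4.77 at 3d, 62.5% ± 12.5 at 5d, 63.3% ± 10.5 at 7d and 77.9% ± 3.15 at 7d+24h. For AGL67 it was 56.9% ± 10.6, 90.6% ± 3.12, 86.5% ± 7.22, 77.1% ± 4.77, 85.0% ± 6.66 and 82.1% ± 4.02 at the same times, so that both genes were seen in the smallest share of seeds at 1h. The share for ABI3 was highest at 7d+24h and not at 1d, where its TMM-scaled CPM was highest. Its mean of thinned UMIs per seed was likewise 1.63 at 7d+24h, against 1.47 at 1d. Without thinning, ABI3 was seen in 86.0% of seeds at 1h and in 96.9% to 100.0% later, and AGL67 in 96.8% at 1h and in 97.9% to 100.0% later. ABI4 was seen in 4.41% ± 5.10 of thinned seeds at 1h and in 27.3% ± 12.4 at 7d+24h, or in 16.1% and 94.7% without thinning. The spread of members between seeds was compared with the pool-split control, whose seeds share a mixed extract. The variance over the mean of thinned UMIs of ABI3 was 1.07 ± 0.16 at 7d, against 0.91 ± 0.21 in the pool-split control (SD, n = 3 libraries each, two-sided exact permutation p = 0.40), and for AGL67 1.06 ± 0.24, against 1.19 ± 0.36 (exact p = 0.80). All 5 members so compared had an adjusted p of 1.0, and 3 libraries against 3 cannot go below 0.1.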

How the data were processed

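Expression was measured by 3′ end RNA sequencing in single seeds (the time course with its pool-split control, and the dog1 experiment) and in pools of dry seeds, and samples were grouped by their labels alone. The deposited values are counts of UMIs per gene and seed, without normalization or filtering. To make them, the authors trimmed poly(A), aligned reads to TAIR10 (Araport11 genes) by STAR 2.7.8a and, from reads with 1 mapping, tallied sense-strand UMIs in BRB-seqTools. Counts of dry pools came from HTSeq 0.11.3 once UMI-tools 1.1.0 had taken out duplicates. Versions are those of the submitters' processing notes. UMIs in rows that name no gene, 42.7% in the time course, 9.86% in the dog1 experiment and 3.28% in the dry pools, were left out of library sizes and tests, and unspecific shares count all UMIs outside the 27432 nuclear protein-coding genes. Seeds are numbered within a library in the files, so shared barcodes were not counted.

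Seeds under 5000 genic UMIs were left out and the counts of the others summed per library. For shares of seeds, each seed was thinned to 5000 genic UMIs in 1 seeded draw. Gene names come from RefSeq TAIR10.1, in which 36899 of 37184 identifiers of the time course and dry pools and 37051 of 37336 of the dog1 experiment were found. Genes that passed filterByExpr entered a quasi-likelihood fit (edgeR 4.0.16, R 4.3.3, TMM) that held every group of the experiment, and p-values were adjusted by Benjamini-Hochberg over all of these genes. An SE is |log2 fold change| divided by √F. The test was tried on simulated counts with known changes. Depth is given with the results. A gene with a sum of 3 counts or fewer over a group is at the floor, and intervals and floors cover counting error only. Levels are CPM with the TMM factors. No 2 libraries of a group agreed within sampling noise (lowest chi-square per gene 1.42).

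The members and the gene lists were chosen with earlier results of these data known. All 10 members are named, DOG1 as the check of the mutant, from each list at most 2 called genes of largest change in each direction per comparison, and for members with at least 1 UMI per seed up to 5 genes of highest Pearson r. Replicate numbers in the labels paired libraries in 1 of 12 comparisons, 7d+24h against 3d in Col-0, where the deviations of same-numbered libraries from their group means correlated by 0.246, 0.111 and 0.127. There the fit with the number as a block made the same 4 calls. The other comparisons had correlations between −0.274 and 0.304, without all of a comparison above 0.1. Alternatives were the RLE scaling, DESeq2 1.42.0, no filter, the study's limits on genes, a scaling from these genes, a minimum of 10000 UMIs per seed, a minimum log2 fold change of 1, a replicate block, a fit on the groups compared and leaving out each library, and, chosen after the data were seen, a fit on 1d, 7d and 7d+24h. Proteins were not used here.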

Additional observations from a re-analysis of the deposited data

Results flagged for a closer look

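The difference in ABI3 between dog1-4 and Col-0 was not the same at the 2 time points of the dog1 experiment, by a test of the difference itself. The genotype difference at 7d+24h minus that at 3d, tested as an interaction term in edgeR, was −0.87 on the log2 scale (adjusted p = 0.023). ABI3 was higher in all 3 dog1-4 libraries than in the Col-0 libraries at 3d and lower in all 3 at 7d+24h. The interaction was −0.999 without the dog1-4 3d library that holds leaf and seedling transcripts, and it was called in 5 of 12 fits that left out 1 library, with adjusted p between 0.0021 and 0.074 (edgeR).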

How the results depend on the processing

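Of 40 member calls over 13 comparisons, 18 were made in every fit without a library and under every alternative in which the gene was tested, leaving aside the minimum log2 fold change of 1, which 1 of the 18, VAL1 at 3d against 1d (0.67), did not reach. Of these 18, the study's limits left out those of VAL1, VAL3, LEC1 and LEC2 and, in the dog1 experiment, of ABI3 and ABI4. The minimum of 10000 UMIs per seed removed no seed of the dog1 experiment, so it could not change the calls there. Counts of members called were otherwise as follows, and the cause of the differences was not tested. For 1d against 1h (4 members), counts were 3 to 6 over the settings. For 3d against 1d (7 members), a minimum log2 fold change of 1 left 3, the study's limits on genes 0 and the scaling from those genes 4. For 5d against 3d (0), DESeq2 and the study's limits gave 1 each. For 7d against 5d (6), the study's limits left 2 and a fit on only these groups 3. For 7d+24h against 7d (3), the minimum fold left 1. For 7d against 1h (4), the study's limits and the fit on only these groups left 2 each. For the pool-split control against 7d (2), the study's limits and the fit on only these groups left 1 each, and the scaling gave 5. For dog1-4 against Col-0 at 3d (1), DESeq2 gave 2, and the study's limits and the fit on only these groups 0. At 7d+24h (3), the minimum fold and the study's limits left 1 each, and the fit on only these groups gave 5. For 7d+24h against 3d (4 in each genotype) the study's limits left 0 in Col-0 and 0 in dog1-4. For the interaction (1) the minimum fold, no filter on low counts and the study's limits left 0 each. For dry seeds (1) the minimum fold, RLE and DESeq2 left 0 each. As recomputed here, the study's limits do not give the paper's gene sets, smaller in the time course and much larger in the dog1 experiment. The limits test fewer genes, 8070 in the time course and 679 in the dog1 experiment. Fits with these limits also took library sizes and TMM factors from those genes alone, so log2 fold changes could move as well as calls. The fit that applied the scaling from these genes to all tested genes was run in the time course only, so not for 7d+24h against 3d in dog1-4 either.

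Without each library in turn, counts were 4 to 6 for 1d against 1h, 6 to 7 for 3d against 1d, 0 to 0 for 5d against 3d, 4 to 6 for 7d against 5d, 2 to 3 for 7d+24h against 7d, 4 to 5 for 7d against 1h, 1 to 2 for the pool-split control, 0 to 2 for dog1-4 against Col-0 at 3d, 1 to 3 at 7d+24h, 4 to 4 for 7d+24h against 3d in both genotypes, 0 to 2 for the interaction and 0 to 1 for dry seeds.

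With the replicate number as a replicate block, dog1-4 against Col-0 at 3d had 2 members called (ABI3 0.54, adjusted p = 0.035, edgeR) and dry seeds 0 (ABI3 0.55, adjusted p = 0.092). The block changed no other call of a member. In 2 comparisons, 5d against 3d and 7d+24h against 3d in Col-0, every library correlated best with its own number.

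Among members called under any setting of a comparison, signs turned for VAL2 at 3d against 1d (0.24 with the study's limits, 0.25 with the scaling), ABI3 at 7d against 5d (−0.36 and −0.36), ABI4 at 7d against 5d (0.012 without 7d replicate 1, within −0.55 to 0.012 over the fits without a library), AGL67 in the pool-split control against 7d (RLE 0.026, DESeq2 0.029, study's limits 0.37, scaling 0.37, only these groups 0.18, without 7d replicate 1 0.0012, without pool-split replicate 2 0.065, within −0.11 to 0.065 over the fits without a library), AGL67 in dog1-4 against Col-0 at 7d+24h (0.21 with the study's limits) and AGL67 at 7d+24h against 3d in dog1-4 (0.12 with the study's limits). In 18 further pairs of a member and a comparison, not called under any setting, the sign also turned under at least 1, among them FUS3 at 1d against 1h (−0.55 to 0.20), FUS3 at 7d against 5d (−0.46 to 0.46), VAL2 at 7d against 5d (−0.48 to 0.42), ABI4 at 3d against 1d (−0.51 to 0.37) and ABI3 in the pool-split control against 7d (−0.20 to 0.22).

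Of the log2 fold changes of single members, 351 of 428 under the other settings and 275 of 336 without a library kept their sign and their side of the threshold. Shares of seeds without thinning were higher, for ABI3 at 1h 86.0% in place of 38.7%.

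Counts of all genes called also moved. With a minimum log2 fold change of 1 they were 3118 in place of 5334 for 7d+24h against 7d, 141 in place of 215 for dog1-4 against Col-0 at 3d and 1637 in place of 4287 at 7d+24h, 3388 in place of 6486 and 5001 in place of 8461 for 7d+24h against 3d in Col-0 and in dog1-4, and 499 in place of 943 in dry seeds. With the study's limits they were 4320 in place of 12016 for 1d against 1h, 3425 in place of 13177 for 3d against 1d, 2746 in place of 14004 for 7d against 5d, 4280 in place of 10594 for 7d against 1h, 599 in place of 6298 for the pool-split control, 56 at 3d and 226 at 7d+24h for dog1-4 against Col-0, 152 in Col-0 and 279 in dog1-4 for 7d+24h against 3d, and 69 in place of 576 for the interaction. With only the groups compared they were 6738 for 1d against 1h, 5801 for 7d against 1h and 41 for dog1-4 against Col-0 at 3d, where DESeq2 called 465, no filter 460 and the replicate block 476. For the interaction DESeq2 called 939 and the replicate block 1246. For 5d against 3d, with 8 called, DESeq2 called 85, no filter 15, the block 18, the study's limits 43, the scaling 16, the minimum of 10000 UMIs 4 and the fit on only these groups 0.

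Depth limits LEC1, LEC2, L1L and VAL3, at few counts per library, and most members in dry seeds.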
